A study of Mus musculus with 20 samples.

Results

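The proteasome genes measured here were the 47 protein-coding genes whose symbols start with Psma, Psmb, Psmc, Psmd, Psme or Psmg and a digit and that held at least 100 counts over 20 RNA-seq libraries of mouse CD4+ T cells. They were taken from a table of 22048 protein-coding genes. Another 2 genes carry matching symbols but fell under the minimum, Psmb11 with 1 count and Psma8 with 49 counts. The genes just above it were Psmc3ip with 1427 counts, Psmg4 with 2180 and Psmg3 with 2557. All 47 were among the 13072 genes tested, so no member was lost to the filter on low counts. By role the members were 7 subunits of the 20S alpha ring (Psma1 to Psma7), 4 non-catalytic subunits of the beta ring (Psmb1 to Psmb4), 3 constitutive catalytic subunits (Psmb5, Psmb6 and Psmb7), 3 immunoproteasome catalytic subunits (Psmb8, Psmb9 and Psmb10), 6 ATPases and 11 other subunits of the 19S cap, 3 chaperones of 19S assembly, 4 chaperones of 20S assembly and 5 genes of activator caps. The last member, Psmc3ip, shares the letters only, since it encodes a partner of the meiotic recombinases and not a proteasome subunit.

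The proteasome is the barrel-shaped protease that degrades ubiquitin-tagged proteins. Its 20S core holds rings of alpha and beta subunits, its 19S cap unfolds substrates with a ring of ATPases, and the PA28 caps (Psme1 with Psme2, or Psme3 alone) and PA200 (Psme4) can sit in place of the 19S cap. Interferon-gamma is known to induce Psmb8, Psmb9 and Psmb10, which take the places of Psmb5, Psmb6 and Psmb7 in newly assembled cores, together with Psme1 and Psme2. Such immunoproteasomes cut more peptides that fit MHC class I molecules, and lymphocytes contain them without added interferon.

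The libraries formed 10 groups with n = 2 each. KO mice carried floxed Dot1l alleles (DOT1L FL/FL) together with CD4Cre, and WT mice carried CD4Cre alone, so Cre under the control of Cd4 was present in every group. Dot1l encodes the methyltransferase that modifies lysine K79 of histone H3. KO and WT cells were cultured for 4 days as Th1 cells (IL-2 and IL-12 at 10 ng/ml, anti-IL-4 at 10 µg/ml) or as Th2 cells (IL-2 and IL-4 at 10 ng/ml, anti-IFN-γ at 10 µg/ml) on anti-CD3 and anti-CD28 at 1 µg/ml, and viable CD4+ cells were sorted. WT cells were also cultured under both conditions with 1 µM SGC0946, a DOT1L inhibitor, or 1 µM SGC0649, its control compound. KO and WT naive cells were the starting population from spleen and peripheral lymph nodes. The age and sex of the mice and the number of mice per library are not given in the sources used here. The labels do not say that the libraries of a group came from separate animals, so p-values measure the spread between these libraries, which may be technical.

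Protein-coding counts ran from 9704500 to 13025588 per library, with 49.5% to 56.3% of alignments assigned to genes. The members held 0.385% to 0.687% of the protein-coding counts. Spread between the libraries of a group was taken over genes of high average CPM only, so genes of low counts are left out. The SD of the log2 difference was 0.32 in WT Th2 cultures with SGC0649, 0.30 in KO Th2 cultures and at most 0.21 in the other groups. Dot1l RNA, counted over the whole gene, stood at 131 and 146 CPM in KO Th1 cultures against 176 and 186 CPM in WT Th1 cultures (log2 change -0.39 ± 0.11, adjusted p = 0.00841), with CPM scaled by TMM. It stood at 113 and 92.5 CPM in KO Th2 cultures against 148 and 164 CPM in WT Th2 cultures (-0.60 ± 0.11, adjusted p = 0.000269). In naive cells it did not pass the test (-0.10 ± 0.11, adjusted p = 0.543), and since the deleted exons are not given in the sources used here, whole-gene counts are a weak check of the labels. Of 12 T cell markers 10 were tested and none was at 0 in any group. Changes are given as log2 change ± SE from edgeR's quasi-likelihood test, and a gene was called at a Benjamini-Hochberg adjusted p under 0.05 over all 13072 genes. Statements on overlap between groups describe the same libraries as the call and add no support to it. The share of all genes without overlap was not computed.

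Summed over the 47 members, the level was 6215 and 6344 CPM in KO Th1 cultures and 5759 and 5871 CPM in WT Th1 cultures. It was 4392 and 4690 CPM in KO Th2 cultures and 4665 and 4891 CPM in WT Th2 cultures, below every Th1 library of the same genotype. Naive cells were lowest after TMM scaling, at 3912 and 4067 CPM in KO and 4128 and 4116 CPM in WT. This order depended on the scaling. As shares of the protein-coding counts before it, members held 0.385% and 0.412% in KO Th2 and 0.457% and 0.487% in WT Th2 cultures. They held 0.421% and 0.428% in KO naive and 0.415% and 0.407% in WT naive cells. The Th2 cultures with SGC0649 spread most, at 4830 and 5748 CPM, and the highest of the Th2 libraries was replicate 2 of that group. In bulk RNA, fewer cells of a type and less RNA per cell cannot be told apart.

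**Figure D1:**
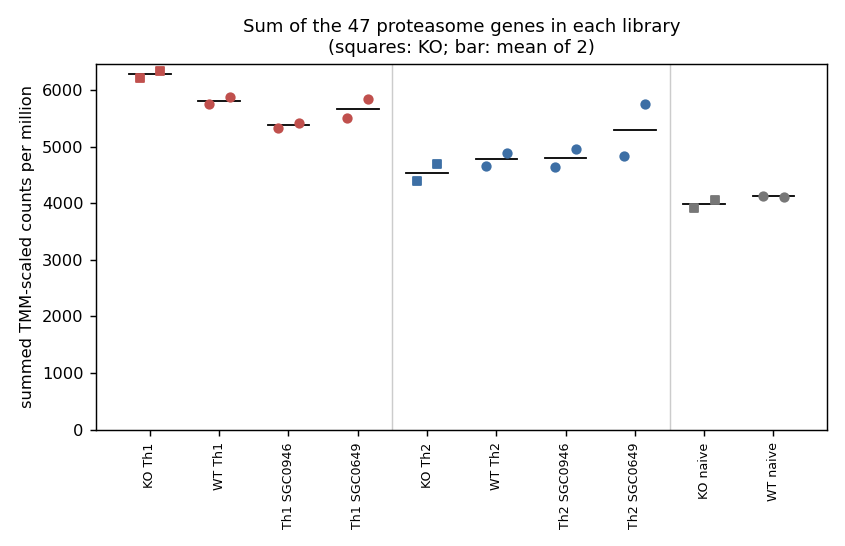
Summed CPM of the 47 proteasome genes in each of the 20 libraries (vertical axis), by group (horizontal axis), each point 1 library. KO Th1 cultures reached 6215 and 6344 CPM against 5759 and 5871 CPM in WT Th1 cultures, and naive cells lay at 3912 to 4128 CPM.

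Levels of different genes were compared per length, as CPM per kilobase of exon (RPKM). Averaged over all groups, the non-catalytic subunit Psmb1 was highest at 184 RPKM, followed by the alpha subunit Psma2 at 174 RPKM and the immunoproteasome subunit Psmb8 at 153 RPKM. Psmb10 averaged 65.8 RPKM and Psmb9 46.4 RPKM. The constitutive subunits averaged 55.1 RPKM for Psmb6, 25.0 RPKM for Psmb5 and 24.6 RPKM for Psmb7. In CD4+ T cells of every group the RNA of Psmb8 was therefore well above that of its counterpart Psmb5, while Psmb9 and Psmb6 lay nearer to each other. The lowest members were Psma3 at 3.89 RPKM, Psmc3ip at 3.5 RPKM and Psmd9, a chaperone of the 19S base, at 3.25 RPKM.

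Alignments to more than 1 place went uncounted, so levels of members with near copies in the genome are uncertain. Of the windows of 50 bases in the transcripts of Psme2b, 69.3% also occur elsewhere, chiefly in Psme2, for which the share was 28.3%. It was 54.1% for Psmb5, chiefly shared with Gm3375, 49.1% for Psma5, and 15.4% for Psma3. For the other catalytic subunits it was 0% in Psmb7, Psmb9 and Psmb10, 0.227% in Psmb8 and 1.05% in Psmb6. The level of Psmb5 may therefore be understated.

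The immunoproteasome genes Psmb8 (chr17:34197721-34201454, plus strand, GRCm38) and Psmb9 (chr17:34181988-34187764, minus strand) lie in the MHC, while Psmb10 lies on chr8:105935728-105938392 (minus strand). Their counterparts Psmb5 (chr14:54614120-54617995, minus strand), Psmb6 (chr11:70525367-70527858, plus strand) and Psmb7 (chr2:38588036-38644087, minus strand) are scattered. The promoter windows shown are those of Psme1 and of the catalytic subunits, the genes of the comparison of immunoproteasome with constitutive subunits. Not all of these genes differed between Th1 and Th2 cultures in every setting. Each runs from 250 bases before to 50 bases after the RefSeq transcription start on GRCm38.p6 and is printed 5′ to 3′ on the gene's own strand. In the deposited annotation the genes Psmb8, Psmb9 and Psme1 begin upstream of their windows, so motif distances hold for the RefSeq start only. Windows were found for 40 of the 47 members, not including Psmb7. Searched on both strands were the gamma-activated site of STAT factors (TTCNNNGAA), the interferon-stimulated response element of IRF factors (GAAA, 2 bases of any kind, GAAA) and the antioxidant response element of NRF factors (TGACNNNGC). Each window printed held at most 1 match, so no matches overlapped. Capitals mark a match in Psmb8 (TTCNNNGAA, 97 to 89 bases before the start), Psmb5 (TGACNNNGC, 47 to 39 bases before), Psmb6 (TGACNNNGC, 9 to 1 bases before) and Psme1 (the interferon-stimulated element on the opposite strand, bases 9 to 18 after the start). In Psmb9 the capitals mark no motif but the stretch that holds the first 25 bases of the transcript of Tap1, read here on the strand of Psmb9; Tap1 encodes a chain of the MHC class I peptide pump and starts 226 bases away on the opposite strand.
Psmb8, chr17:34197945-34198244, plus strand: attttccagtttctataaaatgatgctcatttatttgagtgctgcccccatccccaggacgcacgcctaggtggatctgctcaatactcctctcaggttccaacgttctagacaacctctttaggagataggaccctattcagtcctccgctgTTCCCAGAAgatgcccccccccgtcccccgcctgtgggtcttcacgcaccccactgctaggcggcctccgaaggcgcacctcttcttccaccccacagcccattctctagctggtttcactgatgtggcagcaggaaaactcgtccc
Psmb9, chr17:34187281-34187580, minus strand: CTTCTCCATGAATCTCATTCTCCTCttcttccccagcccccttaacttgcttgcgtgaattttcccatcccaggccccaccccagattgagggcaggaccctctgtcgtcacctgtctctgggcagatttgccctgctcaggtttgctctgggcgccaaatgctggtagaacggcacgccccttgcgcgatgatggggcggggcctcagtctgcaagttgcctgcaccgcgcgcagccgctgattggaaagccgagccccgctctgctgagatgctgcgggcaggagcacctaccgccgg
Psmb10, chr8:105938343-105938642, minus strand: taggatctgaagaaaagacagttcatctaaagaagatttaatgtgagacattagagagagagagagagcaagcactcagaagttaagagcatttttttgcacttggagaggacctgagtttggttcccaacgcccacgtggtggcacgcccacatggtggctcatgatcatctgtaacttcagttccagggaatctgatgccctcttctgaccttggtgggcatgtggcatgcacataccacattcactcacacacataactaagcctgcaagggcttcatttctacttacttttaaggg
Psmb5, chr14:54617946-54618245, minus strand: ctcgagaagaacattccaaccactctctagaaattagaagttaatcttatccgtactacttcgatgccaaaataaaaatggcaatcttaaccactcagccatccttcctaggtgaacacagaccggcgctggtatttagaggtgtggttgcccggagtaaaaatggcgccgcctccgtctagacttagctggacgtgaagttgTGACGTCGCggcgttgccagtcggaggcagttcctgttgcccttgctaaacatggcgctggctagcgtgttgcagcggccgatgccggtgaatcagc
Psmb6, chr11:70525107-70525406, plus strand: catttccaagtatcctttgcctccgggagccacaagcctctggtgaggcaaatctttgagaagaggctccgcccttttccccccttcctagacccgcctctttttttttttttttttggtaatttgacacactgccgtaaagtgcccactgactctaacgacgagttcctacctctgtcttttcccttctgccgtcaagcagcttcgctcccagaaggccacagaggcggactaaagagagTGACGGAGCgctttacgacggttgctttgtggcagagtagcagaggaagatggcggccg
Psme1, chr14:55578244-55578543, plus strand: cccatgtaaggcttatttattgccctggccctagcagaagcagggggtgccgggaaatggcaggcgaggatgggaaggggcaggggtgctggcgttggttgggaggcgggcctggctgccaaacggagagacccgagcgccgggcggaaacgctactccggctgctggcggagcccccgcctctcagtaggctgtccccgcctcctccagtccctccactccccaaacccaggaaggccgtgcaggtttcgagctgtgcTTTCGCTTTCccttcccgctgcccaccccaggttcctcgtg
The promoter windows of Psmb9 and Tap1 share 275 bases (chr17:34187306-34187580), so they are largely the same DNA read from both strands. TTCNNNGAA occurred in 3 of the 40 member windows (7.5%) against 9.55% of 27025 genes with a window, the interferon-stimulated element in 5 (12.5%) against 3.99%, and TGACNNNGC in 6 (15%) against 14%. The members with the interferon-stimulated element were Psmd4, Psmd9, Psme1, Psmb3 and Psmg4, and the windows of Psmb8, Psmb9 and Psmb10 held none. All matches are letters in a window, and factor binding was not measured.

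The contrast of Th1 with Th2 cultures asked how polarisation relates to the makeup of the proteasome. In WT cultures without compound, 25 of 47 members were higher and 4 lower in Th1, where 26% of all genes tested were higher and 27.3% lower (53.3% called), and the median log2 change was 0.31 over the members and 0.00 over all genes. All 3 immunoproteasome subunits were among those higher, with Psmb10 furthest apart. The same contrast in cultures with compound or without Dot1l used other libraries. The immunoproteasome subunits were higher in Th1 in each of them, while 3 constitutive subunits passed in KO and 2 in untreated WT cultures, and these subunits did not pass with either compound. Without Th2 replicate 1 with SGC0649, Psmb7 was called lower in Th1 in that setting (-0.31, adjusted p = 0.0235). Beside these differences, the T cell markers summed to 6180 to 6302 CPM in WT Th1 and 3775 to 4015 CPM in WT Th2 cultures; their part in the result was not tested.

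Psmb10 measured 77.3 and 88.9 RPKM in KO Th1 against 42.6 and 44.1 RPKM in KO Th2 cultures (log2 change 0.94 ± 0.10, adjusted p = 3.59e-07). With SGC0946 it measured 78.5 and 76.5 RPKM in Th1 against 33.6 and 35.9 RPKM in Th2 (1.16 ± 0.10, adjusted p = 4.52e-08), and with SGC0649 it measured 85.1 and 86.2 RPKM in Th1 against 34.6 and 41.0 RPKM in Th2 (1.18 ± 0.10, adjusted p = 4.13e-08). In WT cultures without compound it measured 93.5 and 94.1 RPKM in Th1 against 35.3 and 34.4 RPKM in Th2 (1.43 ± 0.10, adjusted p = 3.47e-09). In each setting the lowest Th1 library lay above the highest Th2 library.

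Psmb9 measured 55.4 and 58.3 RPKM in KO Th1 against 32.5 and 38.9 RPKM in KO Th2 cultures (0.67 ± 0.11, adjusted p = 3.84e-05). It measured 66.5 and 59.7 RPKM in Th1 against 42.8 and 39 RPKM in Th2 with SGC0946 (0.63 ± 0.11, adjusted p = 9.55e-05), and 68.6 and 67.4 RPKM in Th1 against 39.2 and 36.2 RPKM in Th2 with SGC0649 (0.85 ± 0.11, adjusted p = 4.63e-06). In WT cultures without compound it measured 64.4 and 62.4 RPKM in Th1 against 32.9 and 36.3 RPKM in Th2 (0.88 ± 0.11, adjusted p = 2.84e-06). No Th2 library of any setting reached a Th1 library.

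Psmb8 was high everywhere and changed least of the 3. It measured 194 and 200 RPKM in KO Th1 against 139 and 170 RPKM in KO Th2 cultures (0.35 ± 0.09, adjusted p = 0.00252), and 204 and 197 RPKM in WT Th1 against 138 and 133 RPKM in WT Th2 cultures (0.57 ± 0.09, adjusted p = 4.44e-05). Every Th1 library lay above the Th2 libraries of its setting. The compound settings stood between, at 0.52 ± 0.09 each (adjusted p = 0.000111 with SGC0946 and 0.000116 with SGC0649). The KO call was lost without KO Th2 replicate 1 (adjusted p = 0.0509), the lower of the KO Th2 libraries. Apart from that, the calls of Psmb8, Psmb9 and Psmb10 in these 4 settings held under every alternative tried.

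The constitutive subunits were all higher in Th1 in KO cultures and differed from one another in WT cultures. Psmb5, which carries the chymotrypsin-like activity, measured 36.7 and 39.7 RPKM in KO Th1 against 24 and 23.4 RPKM in KO Th2 (0.69 ± 0.14, adjusted p = 0.000564). Psmb6, the subunit with caspase-like activity, measured 65.4 and 71.5 RPKM in KO Th1 against 44.3 and 46.5 RPKM in KO Th2 (0.59 ± 0.09, adjusted p = 4.25e-05), and Psmb7, the subunit with trypsin-like activity, measured 33.3 and 32.3 RPKM in KO Th1 against 16.7 and 18 RPKM in KO Th2 (0.92 ± 0.12, adjusted p = 6.51e-06). No KO Th2 library reached a KO Th1 library in any of the 3. In WT cultures Psmb5 measured 31.7 and 34.1 RPKM in WT Th1 against 20.4 and 20.1 RPKM in WT Th2 cultures (0.70 ± 0.15, adjusted p = 0.000711). With SGC0649 it did not pass, at 26.5 and 28.4 RPKM in Th1 against 21.9 and 31.9 RPKM in Th2 (0.03 ± 0.15, adjusted p = 0.911), and the Th1 values lay between the Th2 values. Psmb7 measured 28.7 and 30.5 RPKM in WT Th1 against 22.5 and 24.4 RPKM in WT Th2 cultures (0.34 ± 0.12, adjusted p = 0.0267), a call lost with DESeq2 (adjusted p = 0.0509) and without any 1 of the 4 libraries (0.0507 to 0.145). Psmb6 did not pass in WT, at 60.9 and 61.6 RPKM in Th1 against 52.4 and 58.0 RPKM in Th2 (0.15 ± 0.09, adjusted p = 0.19).

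**Figure D2:**
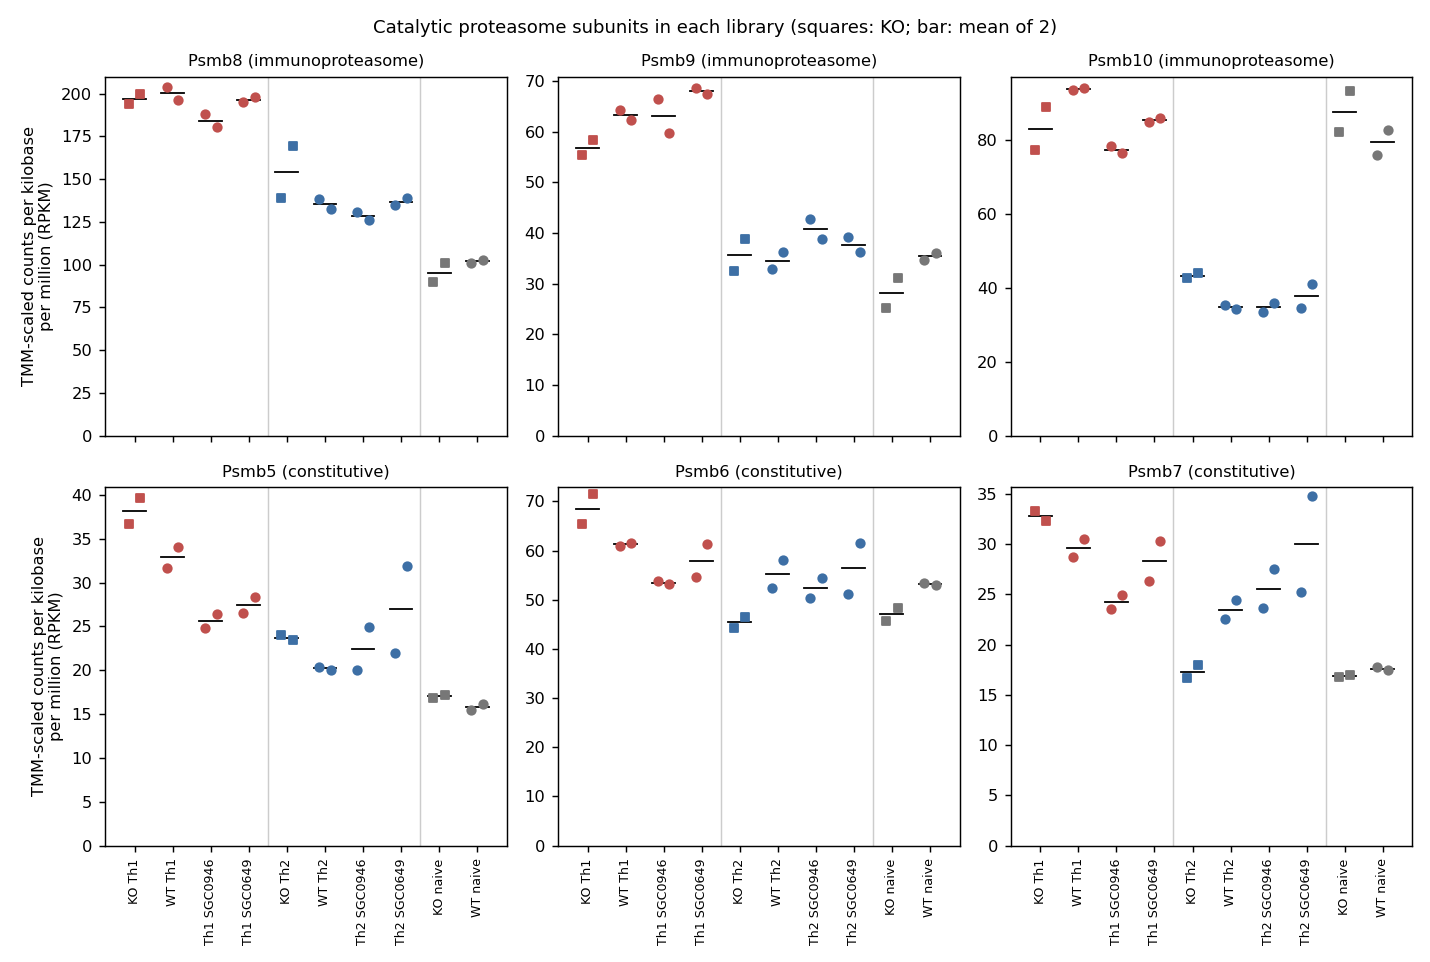
RPKM of the 6 catalytic subunits (panels, vertical axis) in each library, by group, each point 1 library. In WT cultures without compound Psmb10 lay at 93.5 and 94.1 RPKM in Th1 against 35.3 and 34.4 RPKM in Th2, and Psmb6 at 60.9 and 61.6 RPKM against 52.4 and 58.0 RPKM.

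Set as log2 ratios per kilobase, each immunoproteasome subunit over its counterpart, the 3 pairs differed in level and in pattern. Psmb8 over Psmb5 stayed between 2.36 and 2.84 in all group means. Psmb9 over Psmb6 was 0.05 in WT Th1 and -0.67 in WT Th2 cultures. Psmb10 over Psmb7 was 1.67 in WT Th1 and 0.57 in WT Th2 cultures, and highest in naive cells at 2.37 in KO and 2.17 in WT. The mean of the 3 ratios was 1.15 in KO Th1 and 1.22 in KO Th2 cultures, a difference of -0.08. In WT it was 1.44 in Th1 and 0.88 in Th2, a difference of 0.56, and in the compound settings the differences were 0.72 with SGC0946 and 0.84 with SGC0649. These ratios are descriptions of 2 libraries a group, for which an exact two-sided permutation test cannot give a p below 0.333.

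**Figure D3:**
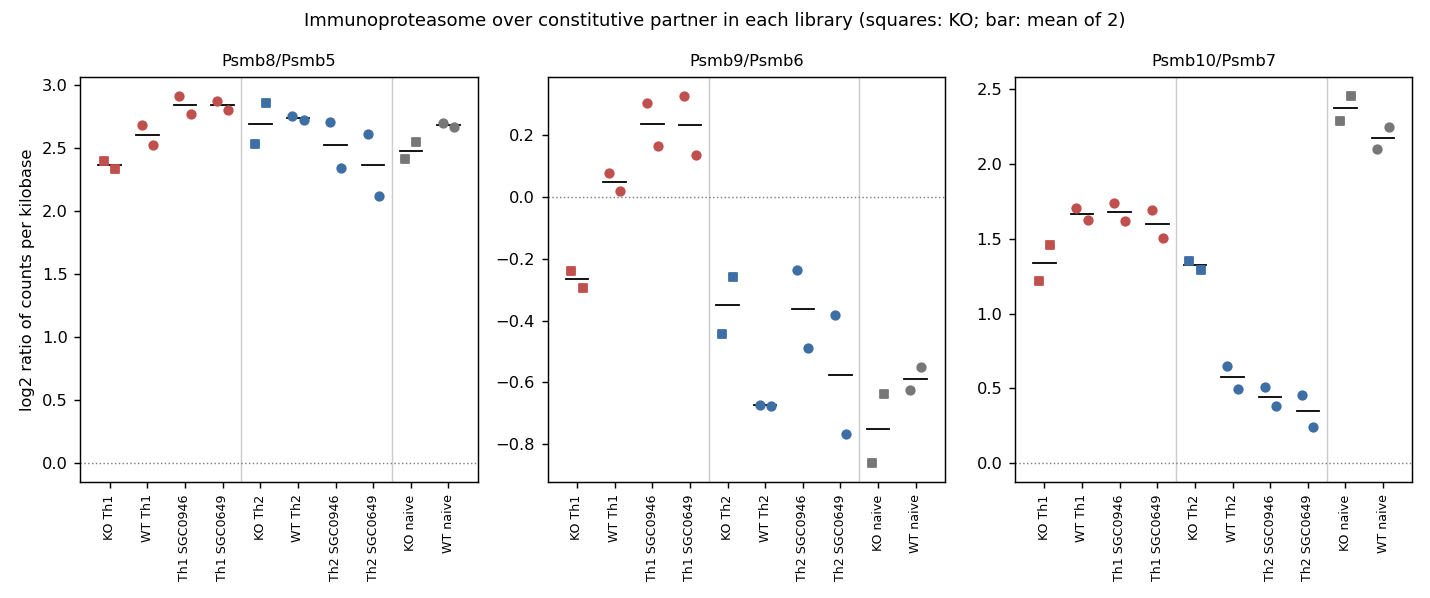
Log2 ratio per kilobase of Psmb8 to Psmb5, Psmb9 to Psmb6 and Psmb10 to Psmb7 (panels, vertical axis), in each library by group, each point 1 library (squares KO, circles WT) and each bar the mean of 2. The Psmb10 to Psmb7 ratio averaged 1.34 in KO Th1, 1.67 in WT Th1, 1.32 in KO Th2 and 0.57 in WT Th2 cultures.

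The activator genes separated into the PA28 alpha-beta genes, which were higher in Th1 in every setting, and the others. Psme2, the PA28 beta subunit, measured 99.7 and 95.6 CPM in WT Th1 against 48.2 and 49.3 CPM in WT Th2 cultures (1.00 ± 0.11, adjusted p = 6.32e-07). Its near copy Psme2b measured 180 and 177 CPM in WT Th1 against 72.6 and 70.2 CPM in WT Th2 (1.32 ± 0.10, adjusted p = 1.17e-08), and the reads of this pair cannot be fully told apart. Psme1, the PA28 alpha subunit, measured 315 and 292 CPM in WT Th1 against 228 and 215 CPM in WT Th2 (0.45 ± 0.08, adjusted p = 0.000153). No library of these 3 genes crossed from one condition to the other. With SGC0946 the Th1 over Th2 values were 0.97 ± 0.11 for Psme2, 1.14 ± 0.10 for Psme2b and 0.50 ± 0.08 for Psme1, and with SGC0649 they were 0.84 ± 0.11, 1.11 ± 0.10 and 0.47 ± 0.08, all called. Psme3, the nuclear PA28 gamma, was called in WT at 171 and 176 CPM in Th1 against 127 and 118 CPM in Th2 (0.50 ± 0.16, adjusted p = 0.0132), which did not pass without WT Th1 replicate 2 (0.0615) or WT Th2 replicate 2 (0.0919). Psme4 measured 151 and 157 CPM in WT Th1 and 171 and 164 CPM in WT Th2 cultures and was not called.

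Called higher in Th1 in all 4 settings were 7 members, namely the 3 immunoproteasome subunits, Psme1, Psme2, Psme2b and Psmd10, a chaperone of 19S assembly. The share of all genes called higher in all 4 settings was not computed, so this count is a description. Psmd10 measured 32.1 and 34.4 CPM in WT Th1 against 27.1 and 28.6 CPM in WT Th2 cultures (0.26 ± 0.10, adjusted p = 0.0392). Its groups did not overlap, but the call was lost under 6 alternatives, DESeq2 among them (adjusted p = 0.135), and it was lost with DESeq2 in the other 3 settings too (0.0652 to 0.122). In the WT settings with compound, 10 members were higher and 4 lower with SGC0946, where 25% of all genes were higher and 25.4% lower (50.4% called), and 7 were higher and 5 lower with SGC0649, where 24.3% were higher and 24.1% lower (48.4% called). The count with SGC0649 rested on the pair of Th2 libraries, since 19 members were called without Th2 replicate 1, with 7 higher and 12 lower, and 22 without Th2 replicate 2, with 18 higher and 4 lower. In KO cultures 41 members were higher and 2 lower in Th1, against 28.1% and 31.8% of all genes (59.8% called), and the median log2 change was 0.51. Mast cell and basophil markers summed to 1127 to 2586 CPM in KO Th1 and 405 to 492 CPM in KO Th2 cultures. CD8 genes summed to 22.1 to 27.6 CPM in KO Th1 against 130 to 267 CPM in KO Th2. Myeloid markers summed to 183 to 242 against 336 to 454 CPM, and stromal markers to 56.7 to 77.1 against 404 to 505 CPM. Of the 7 stromal markers, Col3a1 and Pdgfra had no counts in either KO group. B cell and NK cell markers overlapped. The part of other cells in the result was not tested.

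A small set of members ran the other way in WT cells. Psmc6, an ATPase of the 19S base, measured 126 and 127 CPM in WT Th1 against 224 and 241 CPM in WT Th2 cultures (-0.88 ± 0.07, adjusted p = 3.29e-08). Psma3, an alpha ring subunit, measured 12.7 and 11.4 CPM in WT Th1 against 23.6 and 23.5 CPM in WT Th2 (-0.97 ± 0.18, adjusted p = 0.000238). Psmg1, the chaperone that pairs with Psmg2 in alpha ring assembly, measured 19.7 and 19.2 CPM in WT Th1 against 25.7 and 26.2 CPM in WT Th2 (-0.42 ± 0.12, adjusted p = 0.00654), which did not pass without WT Th1 replicate 2 (0.0563). All 3 were also lower in Th1 with SGC0946 (-0.85 ± 0.07, -0.79 ± 0.19 and -0.72 ± 0.12, in that order) and with SGC0649 (-0.98 ± 0.07, -0.80 ± 0.18 and -0.62 ± 0.12). Psma3 was not called with SGC0946 without the Th1 replicate 1 of that group (adjusted p = 0.0587). The 19S subunit Psmd8 was the remaining one in untreated WT cells, at 197 and 200 CPM in Th1 against 260 and 276 CPM in Th2 (-0.43 ± 0.07, adjusted p = 3.9e-05). In KO cultures none of these 4 was lower in Th1, and Psmc6 was higher, at 153 and 156 CPM in KO Th1 against 133 and 129 CPM in KO Th2 (0.24 ± 0.07, adjusted p = 0.00943), a call lost without KO Th1 replicate 2 (0.0713).

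Among the remaining members in WT Th1 against WT Th2 cultures, 5 of 6 ATPases were higher and 1 lower, 4 of 11 other 19S subunits were higher and 1 lower, and 2 of 7 alpha ring subunits were higher and 1 lower. Of the 4 non-catalytic beta subunits 2 were higher, of the 3 19S chaperones 2, and of the 4 20S chaperones none was higher and 1 was lower. Over all genes tested, 26% were higher and 27.3% lower, and the counts by role were not tested against these shares. Of the 29 members called in this comparison, 10 lost the call in at least 1 alternative, the ATPases Psmc2 and Psmc3 among them. Outside the catalytic and activator genes, the highest fold belonged to Psmc3ip, which is no proteasome subunit, at 8.15 and 8.69 CPM in WT Th1 against 3.47 and 4.24 CPM in WT Th2 (1.13 ± 0.29, adjusted p = 0.00347). Psmd13, a structural subunit of the 19S lid, followed at 127 and 130 CPM in WT Th1 against 68.9 and 76.8 CPM in WT Th2 (0.82 ± 0.16, adjusted p = 0.000388). In KO cultures the largest differences were those of Psmc3ip, with 16.6 and 15.4 CPM in KO Th1 against 1.66 and 3.99 CPM in KO Th2 (2.54 ± 0.29, adjusted p = 1.51e-06), and of Psmd1, the scaffold of the 19S base, with 180 and 183 CPM in KO Th1 against 68.6 and 85.5 CPM in KO Th2 (1.24 ± 0.19, adjusted p = 6.1e-05). The ATPase Psmc5 was next after these, at 131 and 138 CPM in KO Th1 against 68.0 and 68.0 CPM in KO Th2 (0.98 ± 0.13, adjusted p = 6.92e-06). Lower in KO Th1 were Psme4 (-0.83 ± 0.09, adjusted p = 5.15e-07) and the beta subunit Psmb1, at 192 and 180 CPM in KO Th1 against 216 and 219 CPM in KO Th2 (-0.23 ± 0.07, adjusted p = 0.0135). The Psmb1 call was lost in 3 alternatives, among them without KO Th1 replicate 2 (0.0766) or KO Th2 replicate 2 (0.0536).

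**Figure D4:**
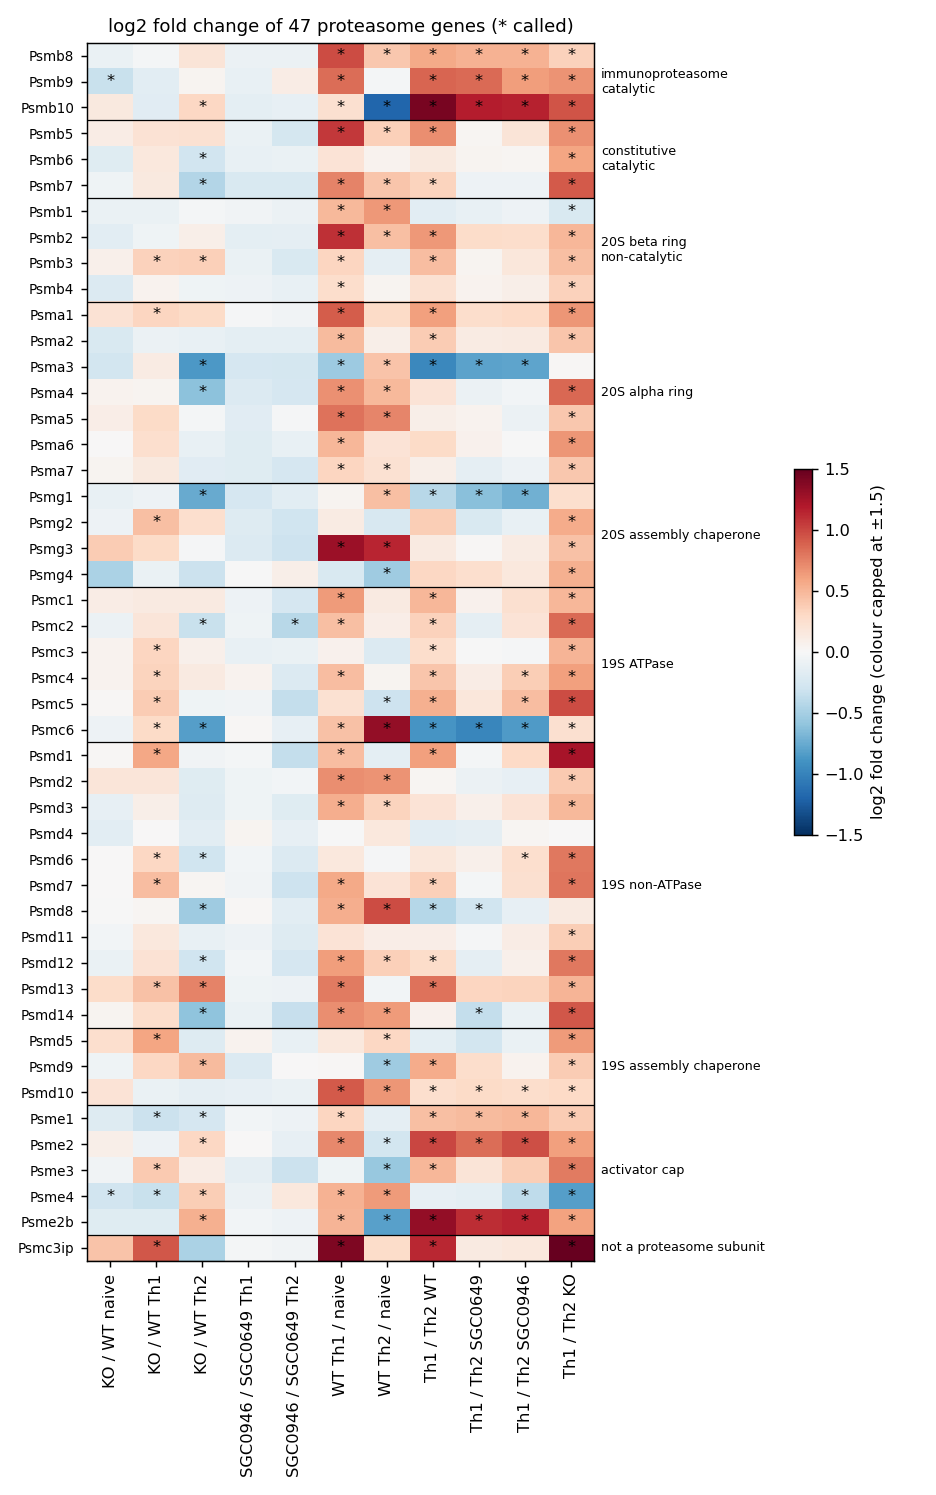
Heat map of the log2 change of each of the 47 members (rows, by role) in each comparison (columns), with called changes marked. Psmb10 stood at 1.43 in WT Th1 over WT Th2, while Psmc6 stood at -0.88 there and at -0.83 in KO over WT Th2 cultures.

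Set against the naive starting cells, both kinds of culture had more members higher than lower. In WT Th1 cultures 34 members were higher and 1 lower than in WT naive cells, where 34.3% of all genes were higher and 33% lower (67.3% called), with a median log2 change of 0.49 over the members and 0.00 over all genes. In WT Th2 cultures 20 were higher and 7 lower, against 36.9% and 35% of all genes (71.9% called), with a median of 0.21. Both comparisons use the same naive libraries, so their values are set side by side only. Summed markers of other cells differed too. Mast cell and basophil markers summed to 184 to 235 CPM in WT Th1 and 309 to 371 CPM in WT Th2 cultures against 34.8 to 69.1 CPM in WT naive cells. Erythroid markers summed to 0.248 to 0.679 CPM in WT Th1 and 0.639 to 0.724 CPM in WT Th2 cultures against 200 to 314 CPM in WT naive cells, and myeloid markers to 88.9 to 90.01 CPM in WT Th1 and 109 to 112 CPM in WT Th2 cultures against 400 to 516 CPM in WT naive cells. Of the 7 erythroid markers, 5 were at 0 in both WT Th1 libraries and 3 in both WT Th2 libraries. Their part in the result was not tested.

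Psmb8 measured 204 and 197 RPKM in WT Th1 cultures (0.98 ± 0.09, adjusted p = 5.28e-08) and 138 and 133 RPKM in WT Th2 cultures (0.41 ± 0.09, adjusted p = 0.000544), against 101 and 103 RPKM in WT naive cells. Psmb10 was lower in WT Th2 cultures, at 35.3 and 34.4 RPKM against 76.1 and 82.9 RPKM in WT naive cells (-1.19 ± 0.10, adjusted p = 9.32e-09), the largest decrease of any member there. In WT Th1 cultures its 93.5 and 94.1 RPKM passed narrowly (0.24 ± 0.09, adjusted p = 0.0307), a call lost with RLE scaling (0.0763), with DESeq2 (0.101) and without WT naive replicate 1 (0.193), WT Th1 replicate 1 (0.0889) or WT Th1 replicate 2 (0.0976). Psmb9 was higher in WT Th1 cultures, at 64.4 and 62.4 RPKM against 34.6 and 36.1 RPKM in WT naive cells (0.84 ± 0.11, adjusted p = 2.44e-06), and did not pass in WT Th2 cultures (-0.03 ± 0.11).

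Of the constitutive subunits, Psmb5 was higher in WT Th1 cultures, at 31.7 and 34.1 RPKM against 15.4 and 16.2 RPKM in WT naive cells (1.06 ± 0.15, adjusted p = 9.4e-06). In WT Th2 cultures it stood at the threshold (0.36 ± 0.16), and 9 alternatives did not call it, DESeq2 (adjusted p = 0.0982) and limma voom (0.0703) among them. Psmb7 measured 28.7 and 30.5 RPKM in WT Th1 cultures (0.75 ± 0.12, adjusted p = 4.09e-05) and 22.5 and 24.4 RPKM in WT Th2 cultures (0.41 ± 0.12, adjusted p = 0.00652), against 17.8 and 17.4 RPKM in WT naive cells. The Th2 call was lost without WT Th2 replicate 2 (0.0541). Psmb6 was called in neither, though in WT Th1 cultures it passed with the replicate block (0.20, adjusted p = 0.0311) and with only the 4 libraries fitted (0.20, 0.00818). The largest increases over naive cells among the proteasome genes proper were those of Psmg3, a 20S chaperone, in WT Th1 (1.28 ± 0.18, adjusted p = 6.91e-06) and of Psmc6 in WT Th2 cultures (1.32 ± 0.07). Psma3 alone was lower in WT Th1 cultures (-0.54 ± 0.18, adjusted p = 0.0142), a call lost without WT naive replicate 1 (0.0614) or WT Th1 replicate 2 (0.0959).

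The comparison of KO with WT asked what loss of Dot1l in CD4-expressing cells went with. In naive cells, 2 of 47 members were called, both lower in KO, where 12.4% of all genes were lower and 16% higher (28.4% called), and the median over the members was 0.00. Psmb9 measured 25.1 and 31.1 RPKM in KO naive against 34.6 and 36.1 RPKM in WT naive cells (-0.33 ± 0.11, adjusted p = 0.0293). Psme4, the PA200 activator, measured 90.5 and 85.9 CPM in KO naive against 112 and 103 CPM in WT naive cells (-0.28 ± 0.09, adjusted p = 0.0262). The groups did not overlap for either gene. Psmb9 was not called without WT naive replicate 1 (0.0621), WT naive replicate 2 (0.154) or KO naive replicate 1 (0.353), and Psme4 not without any 1 of the 4 libraries (0.0559 to 0.2). Markers of other cells differed between these groups, with B cell markers summing to 93.1 and 55.9 CPM in KO naive and 24.2 and 17.6 CPM in WT naive cells and myeloid markers to 664 to 1270 CPM in KO naive and 400 to 516 CPM in WT naive cells. Erythroid markers summed to 1340 and 323 CPM in KO naive and 314 and 200 CPM in WT naive cells, and KO naive replicate 1, the highest in them, was the lower of the KO naive libraries for Psmb9. No marker of these 3 lists was at 0 in either group. T cell markers summed to 4303 to 4839 CPM in KO naive and 5483 to 5698 CPM in WT naive cells. NK cell markers and mast cell and basophil markers were higher in KO naive cells and stromal markers lower, without overlap. The part of all these markers in the result was not tested.

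In Th1 cultures, 14 members were higher and 2 lower in KO, where 24.8% of all genes were higher and 25.8% lower (50.6% called), and the median log2 change was 0.16 over the members and 0.01 over all genes. Those higher in the 19S cap were 4 of 6 ATPases, 4 of 11 other 19S subunits and 1 of 3 19S chaperones. Of these 19S calls, only those of Psmd5 and Psmc6 held under every alternative. The 19S cap is also the largest part of the members, and whether it held more calls than its size would give was not tested. In the 20S core 1 of 7 alpha subunits and 1 of 4 non-catalytic beta subunits were higher, and none of the 6 catalytic subunits was called. The remaining members higher were the activator Psme3, the 20S chaperone Psmg2 and Psmc3ip. Psmd5, the 19S chaperone, measured 80.6 and 73.6 CPM in KO Th1 against 51.3 and 50.9 CPM in WT Th1 cultures (0.59 ± 0.11, adjusted p = 0.000392). Psmd1 measured 180 and 183 CPM in KO Th1 against 113 and 130 CPM in WT Th1 (0.57 ± 0.19, adjusted p = 0.0194). Psmc6 measured 153 and 156 CPM in KO Th1 against 126 and 127 CPM in WT Th1 (0.29 ± 0.07, adjusted p = 0.00324). For these genes both KO libraries lay above both WT libraries, as they did for Psmc3ip at 16.6 and 15.4 CPM in KO Th1 against 8.15 and 8.69 CPM in WT Th1 (0.93 ± 0.25, adjusted p = 0.00584).

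The activators differed in direction in KO Th1 cultures, and the 2 members lower there were both activators. Psme1 measured 234 and 253 CPM in KO Th1 against 315 and 292 CPM in WT Th1 cultures (-0.32 ± 0.08, adjusted p = 0.00334), and Psme4 measured 122 and 122 CPM in KO Th1 against 151 and 157 CPM in WT Th1 (-0.34 ± 0.09, adjusted p = 0.00409). Psme2 overlapped between the groups, at 83.5 and 102 CPM in KO Th1 and 99.7 and 95.6 CPM in WT Th1. Psme3 was higher, at 219 and 236 CPM in KO Th1 against 171 and 176 CPM in WT Th1 (0.39 ± 0.15, adjusted p = 0.0449), a call lost with no filter on low counts (0.0835) and without any 1 of the 4 libraries (0.0920 to 0.200). The catalytic subunits stood at -0.03 ± 0.09 for Psmb8, -0.16 ± 0.10 for Psmb9, -0.17 ± 0.09 for Psmb10, 0.21 ± 0.14 for Psmb5, 0.16 ± 0.09 for Psmb6 and 0.15 ± 0.12 for Psmb7, none called. Psmb6 passed with the 4 libraries fitted alone (0.17, adjusted p = 0.0416) and Psmb10 without KO Th1 replicate 2 (-0.29, 0.0482). The immunoproteasome values were thus below 0 and the constitutive values above it, and the mean of the 3 pair ratios was 1.15 in KO Th1 and 1.44 in WT Th1 cultures, a difference of -0.29. Of the 16 calls, those of Psmd5, Psmc6, Psmc3ip, Psme1 and Psme4 held under all alternatives, and the other 11 were each lost in at least 1. The count was 5 without WT Th1 replicate 1, 9 without WT Th1 replicate 2, 8 without KO Th1 replicate 1 and 7 without KO Th1 replicate 2. Psmd1 was among those lost, with an adjusted p of 0.0536 with no filter on low counts, 0.139 without WT Th1 replicate 1, 0.0657 without KO Th1 replicate 1 and 0.0731 without KO Th1 replicate 2.

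Beside the KO Th1 values, mast cell and basophil markers summed to 1127 to 2586 CPM in KO Th1 and 184 to 235 CPM in WT Th1 cultures, with all 12 called higher and none at 0. Myeloid markers summed to 183 to 242 CPM in KO Th1 and 88.9 to 90.01 CPM in WT Th1, and T cell markers to 4299 to 4396 CPM in KO Th1 and 6180 to 6302 CPM in WT Th1. Their part in the proteasome gene results was not tested.

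In Th2 cultures, 7 members were higher and 12 lower in KO, where 26.5% of all genes were higher and 26.9% lower (53.4% called), with a median log2 change of -0.07 over the members. The lower ones included members of the core, the cap and the chaperones. Psmc6 measured 133 and 129 CPM in KO Th2 against 224 and 241 CPM in WT Th2 cultures (-0.83 ± 0.07, adjusted p = 6.69e-08). Psma3 measured 14.4 and 11.3 CPM in KO Th2 against 23.6 and 23.5 CPM in WT Th2 (-0.86 ± 0.18, adjusted p = 0.000682). Psmg1 measured 15.8 and 15 CPM in KO Th2 against 25.7 and 26.2 CPM in WT Th2 (-0.75 ± 0.12, adjusted p = 5.5e-05). For all 3 the KO Th2 libraries lay far below the WT Th2 libraries. Smaller decreases were those of the alpha subunit Psma4, at 56.3 and 57.8 CPM in KO Th2 against 88.7 and 86.4 CPM in WT Th2 (-0.62 ± 0.10, adjusted p = 8.04e-05), and of Psmd14, the deubiquitinase of the 19S lid, at 69.9 and 83.1 CPM in KO Th2 against 104 and 127 CPM in WT Th2 (-0.60 ± 0.14, adjusted p = 0.00132). Psmd8 was lower too, at 191 and 180 CPM in KO Th2 against 260 and 276 CPM in WT Th2 (-0.53 ± 0.07, adjusted p = 4.38e-06). These 6 calls held under every alternative.

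Of the catalytic subunits in Th2 cultures, Psmb10 rose to 42.6 and 44.1 RPKM in KO, against 35.3 and 34.4 RPKM in WT (0.31 ± 0.10, adjusted p = 0.0135). Psmb7, which it replaces, fell to 16.7 and 18 RPKM in KO, against 22.5 and 24.4 RPKM in WT (-0.44 ± 0.12, adjusted p = 0.00659), and Psmb6 fell to 44.3 and 46.5 RPKM in KO, against 52.4 and 58.0 RPKM in WT (-0.28 ± 0.10, adjusted p = 0.0191). The groups did not overlap in any of these. The Psmb10 call was lost without WT Th2 replicate 2 (0.0656) or KO Th2 replicate 2 (0.0685), the Psmb7 call without WT Th2 replicate 2 (0.0659) or KO Th2 replicate 1 (0.0527), and the Psmb6 call without WT Th2 replicate 2 (0.19) or KO Th2 replicate 1 (0.0928) and with the 4 libraries fitted alone (0.0503). Psmb8 stood at 0.19 ± 0.09, Psmb9 at 0.05 ± 0.11 and Psmb5 at 0.23 ± 0.15, and these were not called. Psmb8 was called higher with DESeq2 (0.21, adjusted p = 0.0462) and without KO Th2 replicate 1 (0.32, 0.00754). The Psmb10 to Psmb7 ratio was 1.35 and 1.29 in the KO Th2 libraries against 0.65 and 0.50 in the WT Th2 libraries, a difference of 0.75 between the group means. The other pairs differed by 0.32 for Psmb9 to Psmb6 and by -0.04 for Psmb8 to Psmb5, and the mean of the 3 ratios was 1.22 in KO Th2 and 0.88 in WT Th2, a difference of 0.34.

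The members higher in KO Th2 cultures were led by Psmd13, at 105 and 140 CPM in KO Th2 against 68.9 and 76.8 CPM in WT Th2 (0.75 ± 0.16, adjusted p = 0.000841). Psme2b stood at 96.2 and 112 CPM in KO Th2 against 72.6 and 70.2 CPM in WT Th2 (0.54 ± 0.10, adjusted p = 0.000235). The 19S chaperone Psmd9 stood at 24.2 and 23.8 CPM in KO Th2 against 16.3 and 18.2 CPM in WT Th2 (0.48 ± 0.14, adjusted p = 0.00724), a call lost without WT Th2 replicate 1 (0.0602). The groups did not overlap in these 3 genes. Psme4 rose to 237 and 197 CPM in KO Th2, against 171 and 164 CPM in WT Th2 (0.37 ± 0.09, adjusted p = 0.00162), a call lost without KO Th2 replicate 1 (0.0571). Psme2 stood at 55.0 and 66.7 CPM in KO Th2 against 48.2 and 49.3 CPM in WT Th2 (0.32 ± 0.11, adjusted p = 0.0206), a call lost with the 4 libraries fitted alone (0.0521) and without WT Th2 replicate 1 (0.0635) or KO Th2 replicate 2 (0.269). Psme1 went the other way, at 188 and 186 CPM in KO Th2 against 228 and 215 CPM in WT Th2 (-0.25 ± 0.08, adjusted p = 0.0167), a call lost with the 4 libraries fitted alone (0.0649) and without WT Th2 replicate 1 (0.158) or KO Th2 replicate 2 (0.0536). Of the 19 calls, 8 held under all alternatives.

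Beside these values, CD8 genes summed to 130 to 267 CPM in KO Th2 and 13.05 to 16.2 CPM in WT Th2 cultures, myeloid markers to 336 to 454 CPM in KO Th2 and 109 to 112 CPM in WT Th2, and stromal markers to 404 to 505 CPM in KO Th2 and 149 to 173 CPM in WT Th2. Of the 7 stromal markers, Col3a1 and Pdgfra had no counts in KO Th2 cultures, and Col3a1 had none in WT Th2 cultures. Mast cell and basophil markers summed to 405 to 492 CPM in KO Th2 and 309 to 371 CPM in WT Th2, without overlap. Their part in the proteasome gene results was not tested.

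The difference between the KO effects in Th1 and Th2 cultures was itself tested. It passed for 19 members, with a higher KO effect in Th1 for 15 and a lower one for 4, against 22% and 24.3% of all genes tested (46.2% called). The count was 12 without WT Th2 replicate 2. Psmc6 had the smallest p, since it was higher in KO in Th1 and lower in KO in Th2 cultures (difference 1.12 ± 0.10, adjusted p = 3.8e-07). Psme4 was the reverse, lower in KO in Th1 and higher in KO in Th2 (-0.71 ± 0.12, adjusted p = 0.000189). For the catalytic subunits the difference was -0.49 ± 0.14 for Psmb10 (adjusted p = 0.00736), 0.44 ± 0.13 for Psmb6 (0.0118) and 0.59 ± 0.17 for Psmb7 (0.01). It did not pass for Psmb8 (-0.22 ± 0.12, 0.171; without KO Th2 replicate 1 -0.35, 0.0208), Psmb9 (-0.20 ± 0.15, 0.288) or Psmb5 (-0.01 ± 0.20). The Psmb6 and Psmb7 calls were each lost without WT Th1 replicate 1 (0.0513 and 0.0532) or WT Th2 replicate 2 (0.0799 and 0.054), and that of Psmb6 also without KO Th1 replicate 2 (0.0738).

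**Figure D5:**
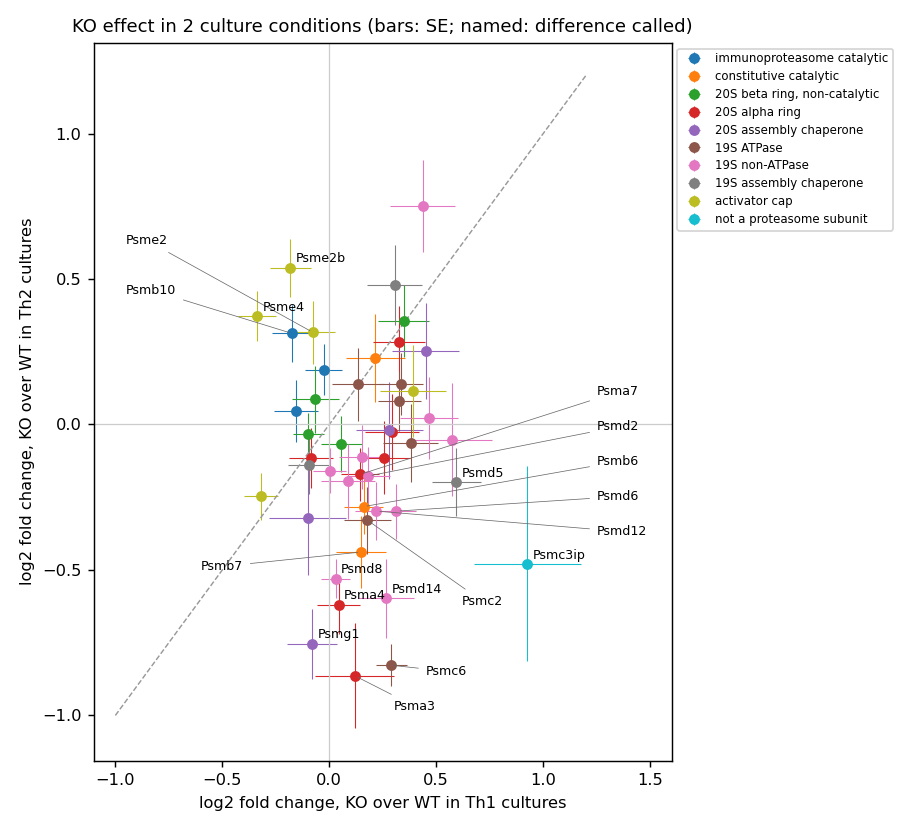
Log2 change of KO over WT in Th1 cultures (horizontal axis) and in Th2 cultures (vertical axis) for the 47 members, coloured by role, with SE bars and a dashed line of equal effects. Named are the 19 members whose effects differed, such as Psmc6 at 0.29 in Th1 and -0.83 in Th2 and Psme4 at -0.34 in Th1 and 0.37 in Th2.

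SGC0946 was compared with SGC0649 to see what inhibition of DOT1L over the culture did. In Th1 cultures edgeR called 0 of 47 members, against 0.467% of all genes (0.405% higher and 0.0612% lower), and none had an unadjusted p under 0.05 (DESeq2 and limma voom called 0 as well). The median log2 change was -0.08. The catalytic subunits had 95% intervals of the log2 difference from -0.28 to 0.09 for Psmb8, -0.33 to 0.11 for Psmb9, -0.34 to 0.05 for Psmb10, -0.41 to 0.21 for Psmb5, -0.32 to 0.08 for Psmb6 and -0.48 to 0.03 for Psmb7. In Th2 cultures 1 member was called, the ATPase Psmc2, lower with SGC0946 at 77.8 and 87.7 CPM against 93.8 and 126 CPM with SGC0649 (-0.41 ± 0.11, adjusted p = 0.0357), where 7.96% of all genes were called (5.45% higher and 2.51% lower). Its groups did not overlap, but the call was lost with the 4 libraries fitted alone (0.367) and without SGC0649 replicate 2 (0.402) or SGC0946 replicate 1 (0.259).

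Values in the Th2 compound cultures turned on replicate 2 with SGC0649, which stood above its partner for many members. Psmb7 measured 23.6 and 27.5 RPKM with SGC0946 against 25.2 and 34.7 RPKM with SGC0649, and Psmb5 measured 20 and 24.9 RPKM with SGC0946 against 21.9 and 31.9 RPKM with SGC0649. In both genes the groups overlapped, with intervals of the log2 difference from -0.48 to 0.03 and from -0.57 to 0.05. The intervals were -0.28 to 0.10 for Psmb8, -0.11 to 0.34 for Psmb9, -0.33 to 0.09 for Psmb10 and -0.30 to 0.09 for Psmb6. The count of members called was 21, all lower with SGC0946, without SGC0649 replicate 1, and 0 without SGC0649 replicate 2. With the replicate number as a block it was 4. SGC0649 against no compound gave 0 called members by edgeR in Th1 cultures, where 0.0153% of all genes were called and none of the members had an unadjusted p under 0.05, and 0 in Th2 cultures, where 0.673% of all genes were called (0.428% lower) and 15 members had an unadjusted p under 0.05, all higher. DESeq2 called 0 and 1, and limma voom 0 in both. Without SGC0649 replicate 1 the Th2 count was 23.

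The KO and inhibitor effects were compared in the same fit. In Th1 cultures the KO effect exceeded the SGC0946 effect for 4 members (Psmc3, Psmd5, Psmd9 and Psmg2), against 12.8% of all genes (30.7% called in either direction), and in no member was it lower. Each of these calls was lost without at least 1 library, and the count was 0 without WT Th1 replicate 1, WT Th1 replicate 2, KO Th1 replicate 1, SGC0649 replicate 2 or SGC0946 replicate 1, 1 without KO Th1 replicate 2 and 2 without SGC0946 replicate 2. With the replicate block it was 17. In Th2 cultures the difference passed for 8 members, 5 higher and 3 lower, against 15% and 17% of all genes (32% called), among them Psmc6, Psmb10 and Psmd13. Of these 8 calls, 2 held under every alternative, that of Psmc6 among them. The Psmb10 and Psmd13 calls, both positive, were lost with only the libraries compared fitted and without KO Th2 replicate 2. That of Psmb10 was also lost without WT Th2 replicate 2, SGC0649 replicate 2 or SGC0946 replicate 1. The Th2 count was 20 without SGC0649 replicate 1, 5 without WT Th2 replicate 2 and 5 without SGC0946 replicate 1. The KO effect also differed between cultures and naive cells, for 1 member in Th1 (27.5% of all genes) and for 9 in Th2 (35.7%), 3 of them with a higher and 6 with a lower KO effect in Th2.

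The wider pathway was read from lists of genes chosen with earlier results known, and each count of a list is to be set against all genes tested, of which 24.8% were higher and 25.8% lower in KO Th1, 26.5% higher and 26.9% lower in KO Th2, and 26% higher and 27.3% lower in WT Th1 than WT Th2 cultures. Of 12 genes of MHC class I antigen processing, 10 were higher and 2 lower in WT Th1 than WT Th2 cultures, and 10 were higher and 1 lower in KO than WT Th2 cultures, while KO Th1 cultures had 3 higher and 3 lower, about the share over all genes. Tap1, whose promoter window is shared with Psmb9, measured 470 and 519 CPM in KO Th1 against 626 and 633 CPM in WT Th1 cultures (-0.35 ± 0.10, adjusted p = 0.00785) and 444 and 494 CPM in KO Th2 against 326 and 346 CPM in WT Th2 cultures (0.48 ± 0.10, adjusted p = 0.000629). These effects differed (-0.83 ± 0.14, adjusted p = 0.000156), and in WT Tap1 was higher in Th1 than in Th2 (0.91 ± 0.10, adjusted p = 9.97e-07). Psmb9, on the other strand of that promoter, was also higher in WT Th1 than in WT Th2 cultures. Its KO effect was negative in Th1 and positive in Th2 cultures and was called in neither. Whether it differed from the KO effect of Tap1 was not tested. Nlrc5, the transactivator of MHC class I genes, was 2.60 ± 0.13 higher in WT Th1 than WT Th2 cultures (adjusted p = 8.21e-11) and fell by 0.96 ± 0.12 in KO Th1 cultures (adjusted p = 5.97e-06).

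Of 11 regulators of the interferon-gamma response, 7 were lower and none higher in KO Th1 cultures, where 25.8% of all genes were lower and 24.8% higher, with a median log2 change of -0.85. Irf1, a transcription factor that binds interferon-stimulated elements, measured 201 and 243 CPM in KO Th1 against 593 and 520 CPM in WT Th1 cultures (-1.32 ± 0.16, adjusted p = 9.64e-06), and 139 and 194 CPM in KO Th2 against 99.9 and 96.6 CPM in WT Th2 (0.76 ± 0.17, adjusted p = 0.0014). In the same KO Th1 libraries Psmb8 measured 194 and 200 RPKM against 204 and 197 RPKM in WT Th1, with overlapping groups. Psmb9 and Psmb10 had negative log2 changes there without a call, Psme2 was not called, and Psme1 was called lower. A relation of these genes to Irf1 was not tested.

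Nfe2l1, which encodes the factor known to raise proteasome genes when proteasomes are inhibited, measured 190 and 200 CPM in KO Th1 against 141 and 137 CPM in WT Th1 cultures (0.49 ± 0.07, adjusted p = 2.8e-05) and was not called in KO Th2 (0.05 ± 0.07). It was lower in WT Th1 than WT Th2 cultures (-0.58 ± 0.07, adjusted p = 3.36e-06). Of the 10 genes that control proteasome expression, 4 were higher and 4 lower in KO Th1 (24.8% and 25.8% of all genes), and 3 and 3 in KO Th2 cultures, close to the 26.5% and 26.9% of all genes. Nfe2l2, another NRF factor, fell by 0.96 ± 0.12 in KO Th1 and by 1.75 ± 0.13 in KO Th2 cultures (adjusted p = 7.98e-06 and 1.01e-08).

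Of 16 tested partners of the 26S proteasome outside the symbol pattern, 8 were lower and 2 higher in KO Th2 cultures (26.9% and 26.5% of all genes), with a median of -0.30, and 4 were higher and 3 lower in KO Th1 cultures, no more than the share over all genes (24.8% and 25.8%). Pomp, the chaperone of core maturation, measured 90.7 and 81.6 CPM in KO Th2 against 105 and 107 CPM in WT Th2 cultures (-0.30 ± 0.09, adjusted p = 0.0104). Usp14, a deubiquitinase that binds the 19S cap, fell by 0.77 ± 0.12 there (adjusted p = 5.16e-05), and it was higher in KO Th1 cultures (0.36 ± 0.12, adjusted p = 0.0168). Ubqln1, a shuttle for ubiquitin-tagged proteins, fell by 0.53 ± 0.09 in KO Th2 (adjusted p = 5.51e-05). Of the 6 ubiquitin genes and ubiquitin-activating enzymes, 1 was higher and 3 lower in KO Th2 and 1 was higher and 1 lower in KO Th1 cultures, against the shares of all genes above.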

How the data were processed

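Gene counts of 20 libraries were used as deposited. The authors ran featureCounts 1.5.3 at strand setting 2 with the Ensembl annotation (release 84, GRCm38), per the file headers, and the deposited tables also give gene length in bases. Among the tools in the submitters' processing notes are edgeR and limma. The aligner is not given in the sources used here. Multimapping alignments (27.4% to 34.9% per library) were left out of the counts.

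Protein-coding counts were filtered with filterByExpr (13072 genes kept), TMM-scaled and fitted over all 20 libraries with 1 mean for each group (edgeR 4.0.16 in R 4.3.3, robust quasi-likelihood test, common biological coefficient of variation 0.0963). Adjustment was by Benjamini-Hochberg over all genes tested. SE is the log2 change over the root of F, and RPKM divides TMM-scaled CPM by the deposited length in kilobases. Pair ratios used a prior count of 0.5. The fitting code was tested on simulated data. Near copies were counted as shared 50-base windows of GENCODE transcripts.

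Members, lists and tests were chosen with earlier results of these data known. Any member could be named. Values per library were fixed for the catalytic subunits, Psme1 and Psme2, for the 3 called members with the largest rise and fall in each comparison of KO with WT or Th1 with Th2, and for Dot1l, Irf1, Tap1, Nfe2l1 and Pomp; 1 further gene is not reported here. Other genes came from the 3 of a list with the smallest p, and the 10 genes most like Psmb9 were ranked by Pearson r over the group means. The Th1 value of Usp14 and values per library of further members were added after they were seen.

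Alternatives were RLE scaling, DESeq2 1.42.0, limma voom (limma 3.58.1), no filter on low counts, the table of all annotated genes, a fit to only the libraries compared, a block for the replicate number, and leaving out each library. Correlations of deviations from the group means were 0.17 to 0.66 for same-numbered libraries of WT cultures (15 pairs of groups) and 0.16 to 0.30 for KO with WT of a condition (3 pairs), against -0.11 to 0.25 for 27 others. These ranges overlapped, and the labels do not say what the number stands for. The fit of all libraries behind the calls used no pairing. The number entered only the alternative with a block, as a single term over all groups. For SGC0946 the tables' columns carry number 1 in both libraries of a condition, and the titles' numbers were used.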

Additional observations from a re-analysis of the deposited data

Results flagged for a closer look

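A difference between the KO effects in 2 culture conditions or stages was the ground for listing each value here, as tested with edgeR's interaction term. The KO effect in Th1 minus that in Th2 cultures was positive for 15 members. It was 1.41 for Psmc3ip, 1.12 for Psmc6, 0.98 for Psma3, 0.86 for Psmd14, 0.79 for Psmd5, 0.67 for Psmg1, 0.66 for Psma4, 0.61 for Psmd6, 0.59 for Psmb7, 0.56 for Psmd8, 0.52 for Psmd12, 0.51 for Psmc2, 0.44 for Psmb6, 0.36 for Psmd2 and 0.32 for Psma7 on the log2 scale. It was negative for 4 members, at -0.72 for Psme2b, -0.71 for Psme4, -0.49 for Psmb10 and -0.39 for Psme2. Of these 19 differences, 12 held under all alternatives, and those of Psma7, Psmb6, Psmb7, Psmc2, Psmc3ip, Psmd2 and Psme2 were each lost in at least 1.

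Between Th1 cultures and naive cells the KO effect differed for Psmc6 only, by 0.36, and the call was lost without any of 5 of the 8 libraries. Between Th2 cultures and naive cells it differed by -0.76 for Psmc6, -0.67 for Psma4, -0.65 for Psmg1, -0.64 for Psmd14, -0.53 for Psmd8 and -0.44 for Psmd5, and by 0.72 for Psme2b, 0.66 for Psme4 and 0.54 for Psmd9. The calls of Psmd14, Psmd5 and Psmd9 were lost in at least 1 alternative. Percentages of all genes with such a difference were 27.5% for Th1 and 35.7% for Th2 against naive cells. No cause of these differences was tested.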

How the results depend on the processing

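Over all comparisons and differences of effects, 239 calls of members were recomputed under each alternative. None changed direction in 2793 recomputations, of which 347 lost the call; 150 calls held throughout and 89 were lost in at least 1. Members not called passed in 262 recomputations. Among counts of members called, fits to the libraries of a contrast alone gave 4 for KO naive (2 in the fit of all libraries), 25 for KO Th1 (16), 0 for SGC0946 over SGC0649 in Th2 (1), 12 for the KO effect in Th1 minus naive (1), 25 for KO minus inhibitor in Th1 (4) and 2 in Th2 (8). KO minus inhibitor in Th1 was 7 with RLE scaling and 8 with limma voom, and SGC0649 over no compound in Th2 was 1 with DESeq2. The KO effect in Th2 minus naive split into 4 higher and 5 lower with RLE scaling and 5 and 5 with DESeq2, in place of 3 and 6.

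The replicate block gave 4 for SGC0946 over SGC0649 in Th2, 2 for SGC0649 over none in Th2, 5 for the KO effect in Th1 minus naive and 17 for KO minus inhibitor in Th1, and it ended no call of a member. Leaving out 1 library gave 0 to 1 for KO naive, 5 to 9 for KO Th1, 13 to 16 for KO Th2 (19), 0 to 21 for SGC0946 over SGC0649 in Th2, 20 to 25 for WT Th1 over Th2 (29), 10 to 22 with SGC0649 (12), 10 to 16 with SGC0946 (14), 35 to 39 in KO (43), 0 to 23 for SGC0649 over none in Th2, 12 to 18 for the KO effect in Th1 minus Th2 (19), 0 to 2 in Th1 minus naive, 6 to 10 in Th2 minus naive (9), and 0 to 3 in Th1 and 5 to 20 in Th2 for KO minus inhibitor. It gave 30 to 33 for WT Th1 over naive (35) and 18 to 22 for WT Th2 over naive (27).

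The mean pair ratio, taken from summed counts per kilobase, differed by 0.057 for KO naive (-0.055 as the mean of 3 pairs), 0.48 for WT Th1 over Th2 (0.56) and -0.16 for KO Th1 over Th2 (-0.08). Without 1 library the difference of KO effects in Th1 and Th2 was -0.71 to -0.56. The causes were not tested. With 2 libraries a group, small differences such as those of the compounds are limited by the spread between libraries, and members under about 10 CPM by counts as well.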

Other observations

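The genes whose log2 CPM over the 10 group means ran closest to that of Psmb9 were Atl3 (Pearson r = 0.993), Rpp25l (0.979), Dpcd (0.971), Serpinb5 (0.971), Spcs1 (0.969), Rims2 (0.967), Ccdc173 (0.963), Homez (0.962), Extl2 (0.960) and Gbp5 (0.957). None is a proteasome gene, and the group means share libraries and normalisation, so the values are a description.

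Genes of the unfolded protein and heat shock responses were read beside the proteasome genes. Of 15 listed, 9 were higher and 1 lower in KO Th1 cultures (24.8% and 25.8% of all genes), with Hspa5, the chaperone of the endoplasmic reticulum, at 1.01 ± 0.11 (adjusted p = 1.46e-06), and 0 were higher and 10 lower in WT Th1 than WT Th2 cultures (26% and 27.3% of all genes), with Atf4 at -1.42 ± 0.07 (adjusted p = 9.61e-11). In KO Th2 cultures 5 were higher and 8 lower (26.5% and 26.9% of all genes), with the mitochondrial chaperonin gene Hspe1 at -1.21 ± 0.12 (adjusted p = 2.65e-07).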
